A study of Homo sapiens with 16 samples.

Results

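The comparison described here sets FAH knockout T47D cells given abemaciclib against T47D cells with a control guide given vehicle, so that both factors of the study differ at once. It was defined by the sample titles and takes 8 of the 16 libraries of the series, 4 in each group. T47D cells are a human breast cancer line, established long ago, with luminal features and both estrogen and progesterone receptors. Abemaciclib was given at 500 nM and the cells were profiled on day 3, the vehicle by title being DMSO, and all groups grew in high-glucose medium with serum. The other 8 libraries, control guide with abemaciclib and knockout with vehicle, entered the same fit and give the value of each factor alone. The labels do not say which guides were used or whether the knockout cells were 1 clone or a pool, so an effect of a clone and an effect of losing FAH cannot be told apart. Separate cultures are not stated for the 4 libraries of each group either, so every p-value reflects library-to-library spread alone, and this may be technical.

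FAH, fumarylacetoacetate hydrolase, carries out the last step of tyrosine breakdown, in which fumarylacetoacetate is split into fumarate and acetoacetate. CDK4 and CDK6, bound to a D-type cyclin, phosphorylate the retinoblastoma protein RB1 and so free E2F factors to switch on genes of DNA replication. Genes of mitosis follow later and are held down in resting cells by the DREAM complex, which binds the cell cycle homology region (CHR) of their promoters. Abemaciclib inhibits CDK4 and CDK6. Interferon-stimulated genes carry a different promoter element, the interferon-stimulated response element (ISRE), which is bound by interferon-activated factors such as IRF9.

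FAH mRNA (ENSG00000103876; chr15:80152789-80186949 in the GRCh38.p14 annotation) was lower in every library of knockout cells with abemaciclib than in any library of control cells with vehicle. The control vehicle libraries held 25.1, 27.5, 25.2 and 28.2 CPM (read counts scaled to the same total in every library), and the knockout abemaciclib libraries held 5.03, 5.67, 6.80 and 5.54 CPM. The means were 26.5 ± 1.57 and 5.76 ± 0.744 CPM (SD, n = 4 each). The difference was -2.03 (SE 0.08, limma adjusted p = 4.2e-21) on the scale of log2(CPM + 1), on which every difference below is given and which understates the change of genes with few reads. An exact two-sided permutation test of the CPM gave p = 0.0286, which is the lower limit for the 70 ways of dividing 8 libraries into 4 and 4. Knockout cells with vehicle stood at 6.65 CPM and control cells with abemaciclib at 24.0 CPM, so the loss was there without the drug. The mRNA level does not measure the protein. Of the 9 tested genes of tyrosine and phenylalanine breakdown, 4 rose and 5 fell, with a median of -0.17. Of all 15631 tested genes 26.8% rose and 31.1% fell. GSTZ1, the enzyme that makes the substrate of FAH, fell by 0.17 (51.5 to 45.6 CPM). GOT1, the aspartate aminotransferase of the cytosol, fell by 0.64 and BDH1, which interconverts ketone bodies in mitochondria, by 0.46, while BDH2 rose by 0.45.

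Of 15631 tested genes, those with at least 1 CPM in at least 4 of the 8 libraries, 4184 (26.8%) were higher and 4869 (31.1%) lower in knockout cells with abemaciclib at a limma adjusted p under 0.05. A difference of at least 2-fold was reached by 255 of the higher (1.63% of all tested) and 519 of the lower genes (3.32%). All 4 knockout abemaciclib libraries lay above the 12 others for 644 genes (4.12%) and below them for 675 (4.32%). These shares are the background for each count of list members, and the balance of higher and lower genes depended on the scaling, as given below. Of the tested genes, 89 reached 1 CPM in all 4 knockout abemaciclib libraries and in no control vehicle library, among them CCL2 and RSAD2, and 118, among them H1-3, did the reverse. Such genes, like PLEKHS1, TFAP2B and H1-4, which reached 1 CPM in only 1 library of the lower group, passed the filter through the group where they are high and so had to differ, and their values are a description. The list counts include such members. The median difference of all tested genes was -0.02.

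**Figure D1:**
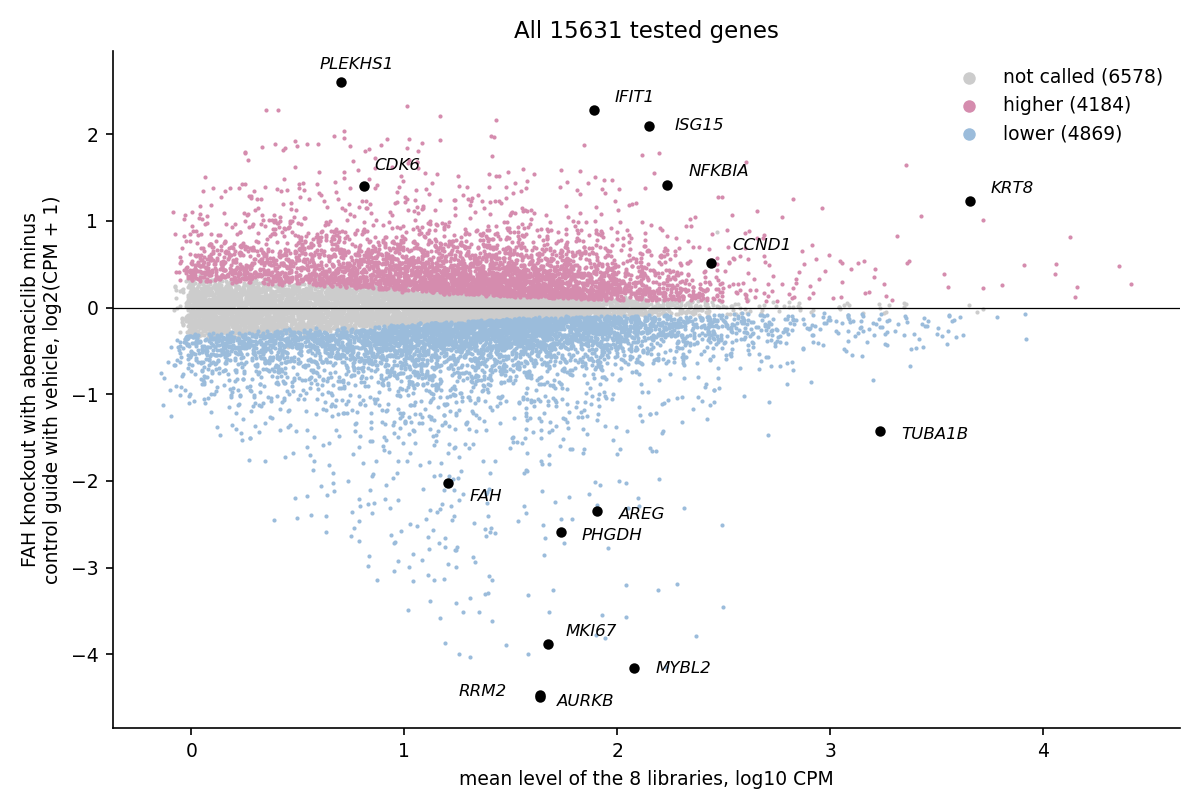
Each point is 1 of the 15631 tested genes, placed by the mean level of the 8 libraries (log10 CPM) and by the difference between FAH knockout with abemaciclib and control guide with vehicle (log2(CPM + 1)), with the 4184 higher and 4869 lower genes in color. The decreases reach -4.49, at AURKB, and the increases 2.61, at PLEKHS1.

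Control vehicle libraries held 9915776 to 10607262 assigned reads and knockout abemaciclib libraries 10934366 to 11773799, as read from the step between low CPM values, so the latter were all deeper. Rows of the ERCC spike-in set summed to 5.26 to 6.05 CPM and 3.06 to 4.99 CPM in these groups, a trace. The part of either in the results was not tested. On the first principal component (57.1% of the variance) the groups lay apart, with control vehicle at -32.1 to -31.5 and knockout abemaciclib at 29.1 to 29.8 at its ends. All 10 luminal markers were tested, with 6 of them called higher and 3 lower and a median difference of 0.17. Their sum was 0.953 to 0.970% of reads in control vehicle and 1.59 to 1.61% in knockout abemaciclib libraries. KRT8, 1 of the 10, alone went from 2700 to 6323 CPM. Markers of other cells were scarce. Of 10 basal markers only KRT15 and ACTA2 passed the filter, KRT5 was at 0 in all 8 libraries, and the sum was 0.00537 to 0.00596% against 0.00756 to 0.00859%. Mesenchymal markers (6 of 14 tested) summed to 0.00879 to 0.00927% against 0.0101 to 0.0115%, and leukocyte markers (2 of 12) to 0.000701 to 0.000778% against 0.000542 to 0.000693%. Endothelial markers (1 of 8, with CDH5 and EMCN at 0 in all 16 libraries) summed to 0.000313 to 0.000444% against 0.000085 to 0.00016%. Hepatocyte markers (1 of 10, SERPINA1, with CYP3A4 at 0 in all 16 libraries) summed to 0.00936 to 0.00999% against 0.0104 to 0.0109%. Of the tested markers, 1 basal, 3 mesenchymal and 1 hepatocyte marker were called higher. Called lower were 1 basal, 2 mesenchymal, 1 leukocyte and 1 endothelial marker. A difference of at least 2-fold was reached by 1 basal and 1 mesenchymal marker, both higher, and by the endothelial marker, which was lower.

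Genes of cell division fell furthest. All 55 genes of the mitosis list fell, 53 of them by at least 2-fold, with a median of -2.64, against 31.1% and 3.32% of all tested genes. For 48 of the 55 the knockout abemaciclib libraries lay below all 12 others. The list made up 0.484% of reads in control vehicle and 0.0793% in knockout abemaciclib libraries. In bulk RNA, fewer dividing cells and less of these mRNAs in each cell cannot be told apart. Its median was -0.27 in knockout cells with vehicle and -2.09 in control cells with abemaciclib, each against control vehicle.

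The promoters of 2 of these genes are shown because they carry the CHR element. They run from 250 bases before to 50 after the first start listed in RefSeq (GRCh38.p14), 5′ to 3′ on the gene's strand, with TTTGAA in capitals. NUSAP1, which bundles microtubules at the spindle, is at chr15:41332631-41332930, plus strand, and MKI67, which encodes the proliferation marker Ki-67, at chr10:128126374-128126673, minus strand.
NUSAP1: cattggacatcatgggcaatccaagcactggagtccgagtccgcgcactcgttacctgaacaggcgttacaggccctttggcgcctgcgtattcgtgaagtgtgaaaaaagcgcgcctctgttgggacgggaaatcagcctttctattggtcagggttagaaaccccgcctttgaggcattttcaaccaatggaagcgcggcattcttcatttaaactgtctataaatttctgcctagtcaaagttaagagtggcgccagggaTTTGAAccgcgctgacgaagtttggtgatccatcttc
MKI67: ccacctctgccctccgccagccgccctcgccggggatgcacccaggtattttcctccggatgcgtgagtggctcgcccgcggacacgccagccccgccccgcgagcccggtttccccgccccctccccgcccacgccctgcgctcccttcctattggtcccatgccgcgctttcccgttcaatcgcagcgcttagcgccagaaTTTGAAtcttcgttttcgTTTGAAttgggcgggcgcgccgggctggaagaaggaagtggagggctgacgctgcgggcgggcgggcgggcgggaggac
The element TTTGAA, sought on both strands, was in 34 of the 48 mitosis promoters found in the table (70.8%) and in 1015 of 10646 promoters of tested genes (9.53%). It was in 106 of 370 promoters of genes lower by at least 2-fold (28.6%) and in 26 of 168 of genes higher by at least 2-fold (15.5%). CCAAT, the box bound by NF-Y that often lies upstream of the CHR, was in 68.8% of mitosis promoters and in 37.2% of all. A match is a description of the sequence and not a bound site.

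MKI67 held 85.5, 89.6, 95.4 and 88.2 CPM in control vehicle libraries and 5.21, 5.14, 5.01 and 5.18 CPM in knockout abemaciclib libraries, a fall of 3.88 (SE 0.06, limma adjusted p = 5.7e-33). The groups were far apart, and the knockout abemaciclib libraries were also all below those of control cells with abemaciclib, whose mean was 12.1 ± 0.991 CPM. AURKB, the kinase of the chromosomal passenger complex, held 84.8, 82.6, 82.0 and 84.8 CPM against 2.38, 3.37, 2.72 and 2.63 CPM, the deepest fall of all tested genes (-4.49, SE 0.09, limma adjusted p = 3.4e-29). Its 4 knockout abemaciclib libraries averaged 3.32% of the control vehicle mean. MYBL2, the B-MYB factor that turns the silenced complex into an activator of mitotic genes, held 235, 231, 220.1 and 225 CPM against 11.98, 10.7, 11.98 and 12.5 CPM, a fall of 4.16 (SE 0.05, limma adjusted p = 1.2e-36).

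Other genes of division followed. KIF20A, a kinesin of cytokinesis, fell from 39.1 to 1.47 CPM and CCNA2, the cyclin A of S phase and mitosis, from 72.9 to 3.69 CPM. PTTG1, or securin, fell from 438 to 30.9 CPM and CDK1, the kinase of mitotic entry, from 149 to 9.96 CPM. BIRC5, or survivin, fell from 165 to 10.8 CPM, SPC25 of the kinetochore from 29.8 to 1.16 CPM and NUSAP1 from 57.3 to 2.94 CPM. The values of these last 3, like those of other genes called uncertain below, came out as whole reads (within 0.02 of a read) in 8 or fewer of the 16 libraries. The same holds for BDH1, BDH2, HMGCS1, ABCC3, MXD3, COX8A, COX7B, UQCRB, DUSP4, CPT2, HSPA4L, MT1X, MT1F, NOP58 and each cytosolic ribosomal protein and each transcript of the mitochondrial genome named below. TOP2A, the topoisomerase of chromosome segregation, fell from 282 to 28.7 CPM. CCNB1, the cyclin partner of CDK1, fell less, from 207 to 44.2 CPM, and control cells with abemaciclib stood near that, at 47.3 CPM. Outside the list, CDCA3, which promotes mitotic entry, fell from 28.2 to 1.45 CPM and NEURL1B, a ubiquitin ligase of Notch ligands, from 34.9 to 1.29 CPM. ENSG00000285920, which shares 48050 bases of the same strand with NUSAP1, fell by 3.62 (uncertain) and cannot be told apart from it.

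**Figure D2:**
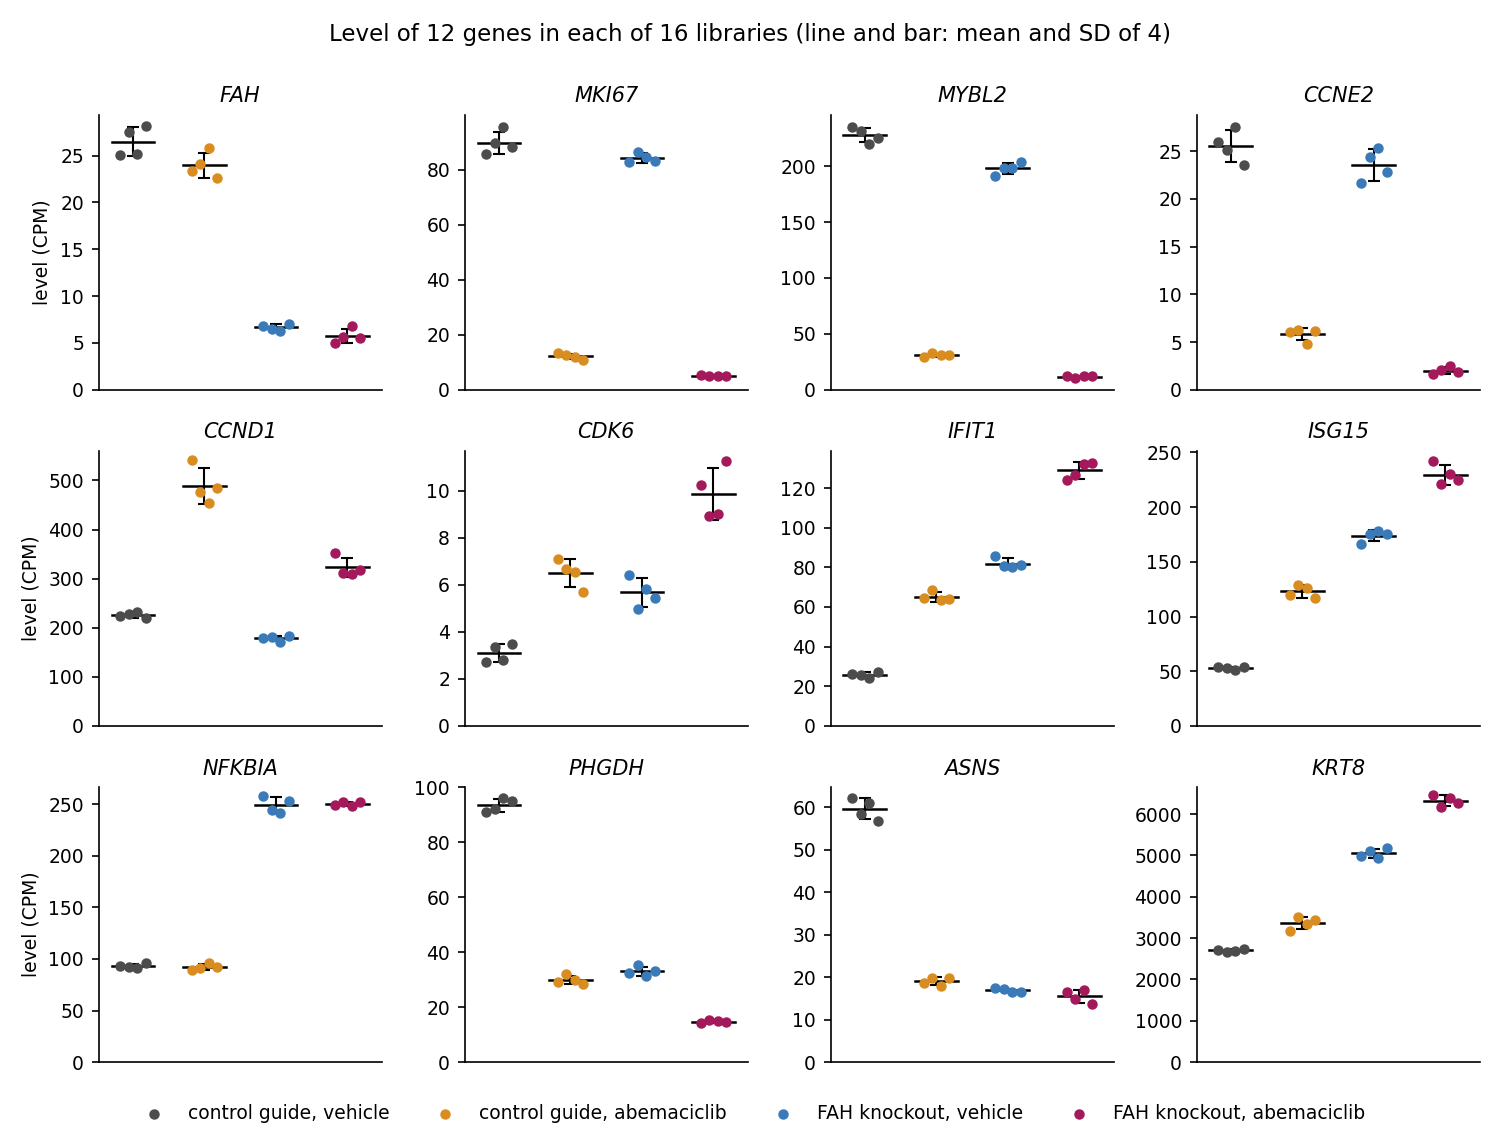
Points are CPM of single libraries in the 4 groups for 12 genes, lines are group means and bars 1 SD (n = 4). MKI67 and MYBL2 are lowest in knockout cells with abemaciclib, whereas NFKBIA is high in both knockout groups and CCND1 in both abemaciclib groups.

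Genes of DNA replication fell as a group. All 47 fell, 35 by at least 2-fold, with a median of -1.37, and for 36 of them the knockout abemaciclib libraries lay below the 12 others. The median was -0.11 in knockout cells with vehicle and -0.93 in control cells with abemaciclib. Promoters of 2 members are shown for the E2F element, TTTCCCGC or TTTGGCGC on either strand, in capitals. TYMS, thymidylate synthase, is at chr18:657403-657702, plus strand, and CDT1, which licenses replication origins, at chr16:88803539-88803838, plus strand.
TYMS: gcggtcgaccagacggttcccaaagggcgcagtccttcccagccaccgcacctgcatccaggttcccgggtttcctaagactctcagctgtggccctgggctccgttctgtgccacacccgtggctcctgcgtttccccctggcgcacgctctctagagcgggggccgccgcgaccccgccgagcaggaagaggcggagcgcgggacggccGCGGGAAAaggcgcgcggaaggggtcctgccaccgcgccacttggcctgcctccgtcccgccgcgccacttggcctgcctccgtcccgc
CDT1: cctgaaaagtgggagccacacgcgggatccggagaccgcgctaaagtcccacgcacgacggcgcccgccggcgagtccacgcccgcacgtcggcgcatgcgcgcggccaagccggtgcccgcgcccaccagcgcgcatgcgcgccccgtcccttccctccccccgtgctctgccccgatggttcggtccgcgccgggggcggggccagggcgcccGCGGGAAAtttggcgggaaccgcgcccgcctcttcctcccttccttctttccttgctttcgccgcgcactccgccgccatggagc
The element was in 18 of 40 replication promoters (45%), in 3.72% of all and in 12.7% of those of genes lower by at least 2-fold. TTTGAA was in 5% of the replication promoters.

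TYMS held 95.3, 88.7, 83.4 and 86.6 CPM in control vehicle libraries and 6.49, 6.29, 7.05 and 7.63 CPM in knockout abemaciclib libraries (-3.51, limma adjusted p = 3e-30). CDT1 held 76.2, 77.1, 81.7 and 85.5 CPM against 12.2, 10.2, 13.7 and 11.7 CPM (-2.65, limma adjusted p = 2.4e-27). In both genes the groups were far apart. RRM2, the ribonucleotide reductase subunit that limits deoxynucleotide supply, fell from 83.9 to 2.87 CPM (uncertain), and TK1, thymidine kinase, from 156 to 12.5 CPM. PCLAF, a partner of the replication clamp PCNA that is in none of the lists, fell from 321 to 17.3 CPM (uncertain). CLSPN, the claspin of the replication checkpoint, fell from 20.2 to 2.78 CPM. Of 25 genes of homologous recombination and the Fanconi anemia pathway, 24 fell, 17 by at least 2-fold, and 1 rose, with a median of -1.28. EXO1, an exonuclease that resects DNA ends, fell from 16.2 to 1.64 CPM, and FANCI from 29.5 to 4.79 CPM. RBBP8, which encodes the resection factor CtIP, rose from 107 to 168 CPM.

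Of 17 tested replication-dependent histone genes, 8 fell and 5 rose (median -0.17). H4C3 fell from 345 to 37.5 CPM, and the linker histones H1-3 and H1-4 had differences of -1.76 and -1.73, while H4C8 rose by 0.78. These mRNAs lack a poly(A) tail in dividing cells, and the labels do not say how mRNA was selected. Genes of DNA methylation and repeat silencing numbered 27, of which 18 fell, 6 by at least 2-fold, and 2 rose (median -0.35). LMNB1, a lamin of the nuclear envelope, fell from 97.8 to 14.2 CPM. UHRF1, which recruits the maintenance methyltransferase, fell by 2.09 (uncertain) and HELLS, a chromatin remodeller, by 1.59. ATRX rose by 0.27.

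The 26 genes around cyclin D, CDK4/6 and RB1 split: 18 fell, 9 by at least 2-fold, 5 rose, and the median was -0.44. Among the drug's own targets, CDK6 held 2.72, 3.37, 2.82 and 3.49 CPM in control vehicle libraries and 10.2, 8.94, 9.003 and 11.3 CPM in knockout abemaciclib libraries, a rise of 1.40 (limma adjusted p = 1.1e-13) with no overlap. CDK4 fell from 181 to 146 CPM (uncertain). CCND1, the cyclin of both kinases, held 224, 227, 233 and 219.7 CPM against 351, 311, 309.8 and 319 CPM, a rise of 0.51 (limma adjusted p = 1.7e-12). It was lower in knockout cells with vehicle (179 CPM) than in control vehicle and highest in control cells with abemaciclib (489.6 CPM). RB1 fell by 0.37, CDK2 by 0.89 and CCNE1 by 0.50. CCNE2, the other cyclin E, fell from 25.5 to 2.01 CPM, with a mean of 5.83 CPM under abemaciclib alone. E2F1 fell from 58.02 to 14.8 CPM and E2F7, a repressor that E2F1 itself induces, from 16.7 to 1.16 CPM. Among inhibitors of the kinases, CDKN2C fell from 31.4 to 3.66 CPM, CDKN1A from 38.7 to 17.6 CPM and CDKN1B by 0.52, while CDKN2B rose from 2.47 to 11.2 CPM.

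**Figure D3:**
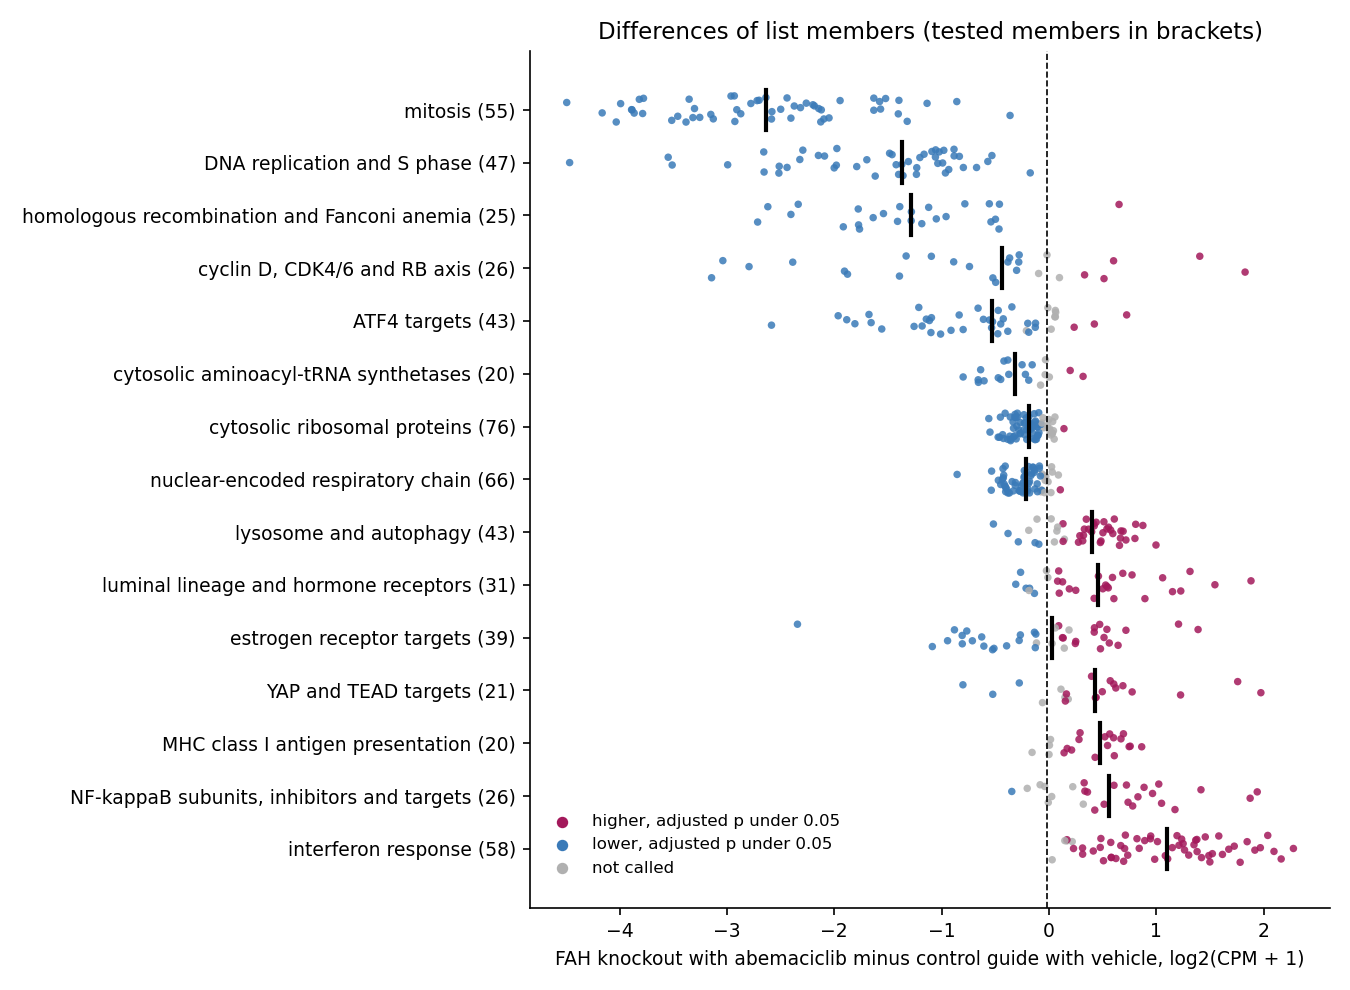
Each point is a gene of 1 of 15 lists, placed by its difference between FAH knockout with abemaciclib and control guide with vehicle (log2(CPM + 1)); black bars are list medians and the dashed line is the median of all tested genes, -0.02. Mitosis, with a median of -2.64, and the interferon response, with 1.09, lie furthest from it on each side.

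Interferon-stimulated genes rose. Of 58 tested members, 54 rose, 31 by at least 2-fold, and none fell, with a median of 1.09. The background was 26.8% and 1.63% of tested genes. MX2, HERC5 and USP18 were among the 4 that did not pass the test, at 0.22, 0.03 and 0.17. The share of reads went from 0.145% to 0.308%. The median was 0.87 in knockout cells with vehicle and 0.46 in control cells with abemaciclib, and for 17 of the 58 the knockout abemaciclib libraries lay above the 12 others.

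Promoters of 2 members are shown for the ISRE core, GAAANNGAA on either strand, which is in capitals. IFIT1, which binds viral RNA lacking a host-type cap, is at chr10:89392373-89392672, plus strand, and IFIT3, its partner, at chr10:89327747-89328046, plus strand.
IFIT1: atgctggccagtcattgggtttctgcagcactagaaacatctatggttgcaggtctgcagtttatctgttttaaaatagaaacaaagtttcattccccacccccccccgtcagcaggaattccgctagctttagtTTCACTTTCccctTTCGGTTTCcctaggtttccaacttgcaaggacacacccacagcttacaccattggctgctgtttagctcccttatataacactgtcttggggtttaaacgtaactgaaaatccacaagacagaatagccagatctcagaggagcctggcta
IFIT3: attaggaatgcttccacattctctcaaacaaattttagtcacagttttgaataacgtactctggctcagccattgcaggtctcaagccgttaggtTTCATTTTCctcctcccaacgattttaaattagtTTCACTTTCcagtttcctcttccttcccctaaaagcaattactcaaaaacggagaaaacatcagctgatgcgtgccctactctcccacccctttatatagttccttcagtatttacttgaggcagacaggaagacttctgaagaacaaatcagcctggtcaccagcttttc
Each holds 2 matches, which begin 115 and 102 bases before the start in IFIT1 and 155 and 121 in IFIT3. The core was in 31 of 47 interferon response promoters (66%), in 6.42% of all, in 28 of 168 of genes higher by at least 2-fold (16.7%) and in 6.49% of genes lower by at least 2-fold.

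IFIT1 held 26.1, 25.5, 24.4 and 27.3 CPM in control vehicle libraries and 124, 127, 132 and 133 CPM in knockout abemaciclib libraries, a rise of 2.28 (SE 0.04, limma adjusted p = 1.3e-29). Each factor alone gave an intermediate level, 81.9 CPM for the knockout and 65.1 CPM for abemaciclib. ISG15, a ubiquitin-like modifier, held 53.5, 52.7, 51.5 and 54.1 CPM against 242, 221, 230.2 and 225 CPM, a rise of 2.095 (SE 0.04, limma adjusted p = 3.2e-30). Knockout cells with vehicle held 174 ± 5.22 CPM and so came nearer to the combined group than control cells with abemaciclib, at 123 ± 5.68 CPM. OAS1, which senses double-stranded RNA and activates RNase L, rose from 10.2 to 42.6 CPM, with 39.6 CPM in knockout cells with vehicle. RSAD2, or viperin, which passed the filter only through the knockout abemaciclib libraries, went from 0.704 to 5.45 CPM. XAF1 rose from 1.43 to 8.99 CPM and IFIT3 from 9.28 to 44.8 CPM (uncertain). The signalling factor IRF9 rose by 0.62 (uncertain).

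Among 17 tested genes of nucleic acid sensing, 10 rose and 2 fell (median 0.34). RIGI, the sensor of RNA with a 5′ triphosphate, rose from 4.97 to 18.1 CPM (uncertain), IFIH1, or MDA5, from 10.5 to 27.2 CPM and ZNFX1 by 1.09. RNASEH2A, which removes RNA from DNA hybrids and is also expressed with replication, fell from 50.9 to 16.8 CPM. Genes of MHC class I presentation rose in 16 of 20 cases with none lower, but none by 2-fold (median 0.47). HLA-F rose by 0.86, TAPBP, which loads peptides, by 0.76 (both uncertain), and the trimming peptidase ERAP1 by 0.75. The list's median was 0.52 in knockout cells with vehicle and 0.04 in control cells with abemaciclib.

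NF-kappaB genes, 26 tested, rose in 18 cases and fell in 1, with 6 up by at least 2-fold (median 0.56). The median was 0.58 in knockout cells with vehicle and 0.05 in control cells with abemaciclib. NFKBIA, the inhibitor that NF-kappaB itself induces, held 93.1, 92.3, 91.4 and 96.3 CPM in control vehicle libraries and 249, 252, 248 and 252 CPM in knockout abemaciclib libraries, a rise of 1.42 (limma adjusted p = 6.7e-27). Control cells with abemaciclib held 92.2 ± 3.07 CPM and knockout cells with vehicle 249 ± 7.77 CPM, so the level followed the genotype. RELB, the subunit of the non-canonical pathway, rose from 2.88 to 13.8 CPM, and ICAM1, an adhesion molecule, from 2.77 to 12.8 CPM. SOD2, the mitochondrial superoxide dismutase, fell by 0.35.

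Genes of the amino acid response fell. Of 43 tested ATF4 targets, 33 fell, 15 by at least 2-fold, and 3 rose, with a median of -0.54. ATF4 is the factor whose translation rises when amino acids run short, and its targets make and import amino acids. The promoters of 2 targets are shown for the ATF4 element core, TGATGNAA on either strand, in capitals. ASNS, asparagine synthetase, is at chr7:97872359-97872658, minus strand, and CHAC1, which degrades glutathione, at chr15:40953221-40953520, plus strand.
ASNS: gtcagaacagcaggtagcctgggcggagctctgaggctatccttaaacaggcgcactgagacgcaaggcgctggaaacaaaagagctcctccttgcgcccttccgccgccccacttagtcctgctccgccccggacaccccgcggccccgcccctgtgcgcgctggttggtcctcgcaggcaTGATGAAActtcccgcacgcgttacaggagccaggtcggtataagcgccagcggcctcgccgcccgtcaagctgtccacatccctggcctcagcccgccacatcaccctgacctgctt
CHAC1: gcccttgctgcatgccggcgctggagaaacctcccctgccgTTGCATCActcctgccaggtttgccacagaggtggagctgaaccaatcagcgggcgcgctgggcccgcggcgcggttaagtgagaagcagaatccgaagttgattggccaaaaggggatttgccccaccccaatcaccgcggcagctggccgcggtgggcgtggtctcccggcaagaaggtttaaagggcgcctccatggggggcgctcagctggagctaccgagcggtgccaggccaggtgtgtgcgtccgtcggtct
The core was in 7 of 35 promoters of the list (20%) and in 1.57% of all. It was in 9 of 370 promoters of genes lower by at least 2-fold (2.43%) and in 3 of 168 of genes higher by at least 2-fold (1.79%).

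PHGDH, the first enzyme of serine synthesis, held 91.0, 92.2, 96.0 and 95.1 CPM in control vehicle libraries and 14.2, 15.3, 14.9 and 14.7 CPM in knockout abemaciclib libraries, a fall of 2.59 (SE 0.05, limma adjusted p = 4.4e-29). Both factors alone had lowered it, to 33.0 CPM in knockout and 29.8 CPM in abemaciclib libraries, and the combined group was lowest. ASNS held 62.3, 58.4, 61.1 and 56.9 CPM against 16.5, 14.8, 16.9 and 13.7 CPM (uncertain), a fall of 1.88. Here the knockout alone (16.9 ± 0.409 CPM) and abemaciclib alone (19.1 ± 0.873 CPM) were already close to the combined level. CHAC1 held 6.35, 5.85, 6.65 and 6.41 CPM against 2.01, 3.45, 1.95 and 1.73 CPM, a fall of 1.18. SLC7A11, the cystine importer, fell from 28.9 to 6.71 CPM. ATF4 itself fell by 0.66 (uncertain), while DDIT3, or CHOP, rose by 0.23 and DDIT4, an inhibitor of mTORC1, by 0.72. Of 20 cytosolic aminoacyl-tRNA synthetases, 14 fell and 2 rose (median -0.31). GARS1 fell by 0.80 (uncertain), FARSA and YARS1 both by 0.66, and RARS1 rose by 0.32.

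**Figure D4:**
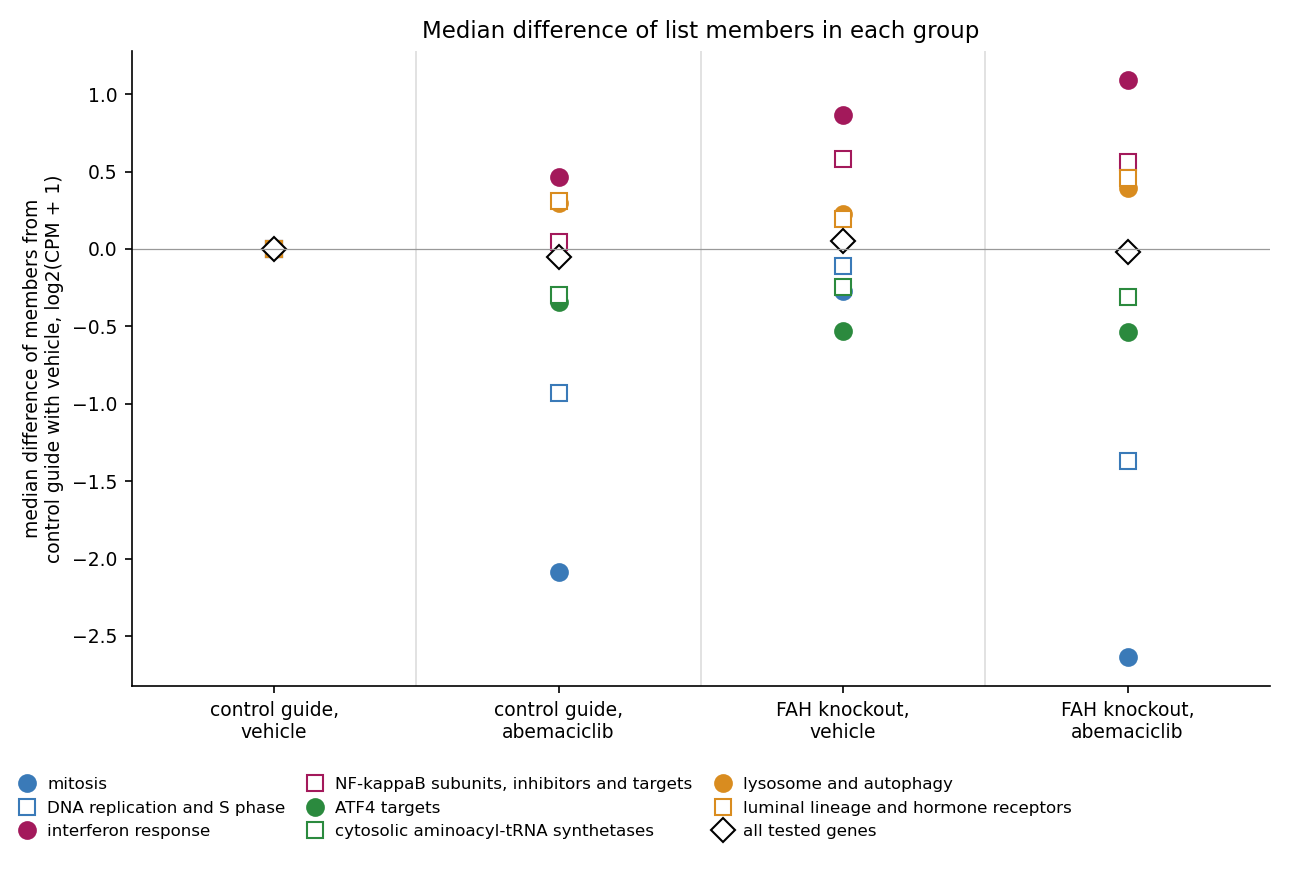
Symbols are the median difference of 8 gene lists and of all tested genes from control guide with vehicle (log2(CPM + 1)) in each of the 4 groups. Mitosis falls from -2.09 under abemaciclib alone to -2.64 with both factors, while ATF4 targets are at -0.53 in knockout cells with vehicle and -0.54 with both.

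Ribosomal genes were slightly lower. Of 76 cytosolic ribosomal protein genes, 61 fell and 1 rose, none by 2-fold, with a median of -0.19. Their share of reads was 17.2 ± 0.217% in control vehicle and 14.9 ± 0.179% in knockout abemaciclib libraries, and 73 of the 76 are uncertain. RPS3A fell from 1685 to 1141 CPM and RPS7 and RPL35 by 0.55 and 0.47, while RPL3 rose by 0.14. Under quantile normalization, which gives all libraries the same distribution, 54 fell and 9 rose. Of 36 genes of ribosome biogenesis, 15 fell and 3 rose (median -0.03). FBL, the fibrillarin of the nucleolus, fell by 0.57, POLR1E by 0.43 and NOP58 by 0.42, and RRP12 rose by 0.26. In the MYC network, 5 of 11 rose and 2 fell (median 0.14). MYC rose by 0.14, MYCL by 0.99 and the antagonist MXD4 by 0.98 (uncertain), and MXD3 fell by 0.38.

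Most nuclear genes of the mitochondrial ribosome and respiratory chain fell, while most mRNAs made in the mitochondrion rose, except under quantile normalization, given below. Of 42 mitochondrial ribosomal protein genes 34 fell and none rose (median -0.27), with MRPL11 down by 0.65, MRPL13 by 0.63 and MRPL54 by 0.63. Of 66 nuclear-encoded respiratory chain genes 53 fell and 1, UQCRB, rose by 0.11 (median -0.22). COX8A, of cytochrome c oxidase, fell from 1044 to 577 CPM, and CYC1 and COX7B by 0.54 and 0.54. Of 13 mitochondrially encoded mRNAs, 8 rose and 4 fell (median 0.24), and their share of reads went from 7.70 ± 0.230% to 9.72 ± 0.197%. MT-ATP6 rose by 0.51, MT-CYB by 0.50 and MT-CO3 by 0.48. MT-ND6, the mRNA of the other strand, fell by 0.61, from 47.3 ± 6.38 to 31.5 ± 9.62 CPM. Its groups overlapped, and the strand setting of the counting is not given. Under quantile normalization, 5 of the 13 rose and 5 fell, and MT-ATP6 and MT-CO3 no longer passed the test.

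Luminal genes rose more often than not. Of 31 tested genes of luminal identity, 23 rose, 6 by at least 2-fold, and 5 fell (median 0.46). Among genes of whole reads alone, 2 of the list rose and 2 fell. KRT8, the keratin of simple epithelia, rose from 2700 ± 27.6 to 6323 ± 127 CPM (1.23; uncertain), and KRT7 rose from 38.1 to 96.1 CPM. ELF3, an epithelial transcription factor, rose by 1.55 (uncertain), and TFAP2B, another, had a difference of 1.88. The receptor genes had small total differences: ESR1 fell by 0.31, GATA3, its companion factor, by 0.27, and PGR rose by 0.25 (uncertain). PGR went from 736 CPM in control vehicle to 667 CPM in the knockout alone and 1071 CPM under abemaciclib alone. With both factors it stood at 875 CPM. Among 39 estrogen receptor targets, 16 rose and 18 fell (median 0.03). AREG, an EGF receptor ligand, fell from 135 to 25.9 CPM, AGR2 from 699.5 to 329 CPM, AGR3 by 0.95 and TFF1 by 0.61, while IRS1 rose from 16.2 to 43.9 CPM.

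In growth factor signalling, 12 of 24 tested genes rose and 7 fell (median 0.16). IRS1, PIK3R3 (14.8 to 35.8 CPM; uncertain) and FGFR2 (0.96) rose, and IGFBP4, which binds insulin-like growth factors, fell from 809.6 to 439 CPM. AP-1 and immediate early genes rose in 14 of 22 cases and fell in 5 (median 0.47). Without control vehicle replicate 1, 3 fell. DUSP1 rose by 1.10, FOSL2 by 1.06 and FOS by 0.97, and IER5 fell by 0.56. Of 14 genes of ERK output 6 rose and 5 fell (median 0.02): PHLDA1, DUSP6 and SPRY1 rose by 1.16, 0.68 and 0.62, and DUSP4, a phosphatase of ERK, fell from 162 to 59.8 CPM. Of 21 YAP and TEAD genes 14 rose and 3 fell (median 0.43). CCN1, a matricellular protein, rose from 59.5 to 203 CPM, TGFB2 from 1.31 to 8.08 CPM and CCN2 from 3.58 to 9.71 CPM, and TEAD4 fell by 0.80.

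Lysosomal and autophagy genes rose in 31 of 43 cases and fell in 5 (median 0.40), and for 12 the knockout abemaciclib libraries lay above the 12 others. GABARAPL1, which decorates autophagosomes, rose by 0.996, the alpha-galactosidase GLA by 0.87 and PSAP, the saposin precursor, by 0.81, and GUSB fell by 0.52. Of 25 genes of the unfolded protein response, 10 rose and 5 fell (median 0.03), SEL1L rising by 0.49, CANX by 0.29 and DNAJB9 by 0.26, with SDF2L1 down by 0.57. Of 20 heat shock proteins, 11 rose and 6 fell (median 0.12). The small heat shock proteins HSPB8, HSPB1 (uncertain) and CRYAB rose by 1.21, 1.01 and 0.62, and HSPA4L fell by 0.40.

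In central metabolism, 19 of 29 genes of the tricarboxylic acid cycle fell and 5 rose (median -0.20). PDK1, which inhibits pyruvate dehydrogenase, fell by 0.85, SUCLG1 by 0.58 and FH, the enzyme that hydrates fumarate, by 0.60, and IDH1 rose by 0.31 (uncertain). Of 34 glycolytic and hypoxia-inducible genes, 18 fell and 8 rose (median -0.18). SLC16A3, a lactate exporter, fell from 16.9 to 6.68 CPM, LDHA by 0.76 (uncertain) and PFKP by 0.70, and ADM rose by 0.94. Cholesterol genes were even, 7 of 27 up and 7 down (median -0.01, above 0 under median-of-ratios and quantile scaling and without control vehicle replicate 1, 2 or 3 or knockout abemaciclib replicate 1 or 3). HMGCS1, LSS and SC5D rose by 0.91, 0.87 and 0.61, and ACAT2, the cytosolic thiolase, fell from 55.4 to 22.3 CPM. Of 23 genes of fatty acid synthesis, 10 rose and 8 fell (median 0.11), LPIN1 rising by 0.88, MLXIPL by 0.52 and ACSL1 by 0.51, with FADS2 down by 1.11. Of 25 genes of fatty acid oxidation, 12 fell and 9 rose (median -0.02, above 0 under the same scalings), HADH falling by 0.88, ECI1 by 0.56 and CPT2 by 0.45, with ACAA1 up by 0.89.

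Of 24 NRF2 and glutathione genes, 9 fell and 8 rose (median -0.07). GPX4, which clears lipid peroxides, fell by 0.61 and GSTM3 by 0.31, beside SLC7A11, and ABCC3, an exporter of conjugates, rose by 0.97. Iron genes rose in 8 of 18 cases and fell in 4 (median 0.07). Without control vehicle replicate 2, or without knockout abemaciclib replicate 1, 2 fell. STEAP1 rose from 5.52 to 23.8 CPM, STEAP2 by 0.83 and FTL, ferritin light chain, by 0.68 (uncertain), and BLVRB fell by 0.58. Of 17 zinc genes, 7 fell and 5 rose (median -0.07). The metallothionein MT2A fell from 127 to 48.7 CPM, MT1X by 0.68 and MT1F by 0.65, and SLC39A1 rose by 0.50. Of 14 ABC transporters, 9 rose and 3 fell (median 0.31), ABCC5 rising by 0.55 and ABCG1 by 0.53, with ABCC11 down by 0.77.

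In the BCL2 family, 7 of 18 rose and 5 fell (median -0.06). HRK, a BH3-only killer, rose by 1.01, and the survival proteins BCL2L1 and MCL1 rose by 0.86 and 0.59. Of 29 secreted or other factors associated with senescence only 13 passed the filter, of which 5 fell and 3 rose (median -0.10). LMNB1, AREG and CDKN1A were among those that fell, and CCL2, a chemokine that passed the filter only through the knockout abemaciclib libraries, went from 0.2996 to 1.89 CPM.

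Several of the strongest increases lay in no list. PLEKHS1 held 0.504, 0.595, 1.01 and 0.754 CPM in control vehicle libraries and 9.97, 9.92, 9.51 and 8.26 CPM in knockout abemaciclib libraries, a difference of 2.61. It passed the filter through the latter group, so this is a description. Knockout cells with vehicle were already at 7.66 CPM. NABP1, which binds single-stranded DNA, rose by 2.20 (uncertain), EFNB2, an ephrin ligand, by 1.96 and VTCN1, the immune checkpoint ligand B7-H4, by 1.94. By CPM the largest gains, beside KRT8 and mitochondrial transcripts, included the long non-coding RNA MALAT1 (9696 to 17020 CPM; uncertain). MT-RNR2, the large mitochondrial ribosomal RNA, went from 23450 to 28310 CPM, and its difference of 0.27 turned to -0.061 under quantile normalization. The largest losses included TUBA1B, an alpha-tubulin (2492 to 931 CPM; uncertain), MGP (2923 to 1830 CPM; uncertain) and the ribosomal proteins RPS14 (9295 to 7237 CPM), RPL27 (4050 to 3019 CPM) and RPL32 (4647 to 3727 CPM), all 3 uncertain.

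The interaction asks whether the combined difference equals the sum of the differences that each factor made alone. All of these differences are on the scale of log2(CPM + 1). Sums of CPM were not tested and can give another direction. The interaction was above 0 for 768 genes (4.91%) and below 0 for 995 (6.37%) at a limma adjusted p under 0.05. Of the 55 mitosis genes, 28 were below 0 and none above, so these 28 fell by more than the sum on the log2 scale. MKI67 stood at 89.7, 12.1, 84.2 and 5.13 CPM in control vehicle, control abemaciclib, knockout vehicle and knockout abemaciclib libraries, an interaction of -1.001 (SE 0.08, limma adjusted p = 1.2e-10). MYBL2 had an interaction of -1.12 and RRM2 of -1.20, and PTTG1, at -0.07 (limma adjusted p = 0.491), did not pass. With a pseudocount of 5 the mitosis genes below 0 numbered 14. Of the 47 replication genes 25 were below 0 and 1 above, with CLSPN at -1.11. In the cyclin D and RB axis, CCNE2 was at -1.07, E2F1 at -0.90 and CCND1 at -0.26.

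Among interferon genes the interaction was below 0 for 31 of 58 and above 0 for none. For these rising genes that means less than the sum of the single differences on the log2(CPM + 1) scale, and not on CPM. ISG15 stood at 52.9, 123, 174 and 229.5 CPM in the same order of groups, an interaction of -0.80 (SE 0.05, limma adjusted p = 1.8e-12). IFIT1 had -0.65. NFKBIA, at 0.02 (limma adjusted p = 0.820), and FAH, at -0.05 (limma adjusted p = 0.859), did not pass. ATF4 targets were the reverse of the mitotic genes, with 30 of 43 above 0 and 1 below. Where these 30 fell, the fall was less than the sum on the same log2 scale. ASNS stood at 59.7, 19.1, 16.9 and 15.5 CPM, an interaction of 1.47 (SE 0.09, limma adjusted p = 8.5e-14), SLC7A11 had 1.44 and PHGDH 0.51. ENSG00000284707, which shares 20425 bases of the same strand with ASNS, had 1.46. ENSG00000248498 and ENSG00000290398, both named ASNSP1 in the reference name table after a pseudogene of ASNS, had 1.499 and 1.30, and none of these 3 (ENSG00000284707 and ENSG00000290398 uncertain) can be told apart from ASNS by these values. Of 20 synthetases, 12 were above 0 and none below. Outside the lists, CAMK2B, a calmodulin-dependent kinase, stood at 4.67, 9.07, 8.24 and 6.46 CPM (-1.14), and MDGA1, a membrane-anchored adhesion protein, at 5.91, 18.8, 7.67 and 10.3 CPM (-1.13).

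Some genes ended near their starting level although they differed one way between knockout and control cells with vehicle and the other way between abemaciclib and vehicle within knockout cells. These were chosen for that pattern, so their values are a description. STC2, stanniocalcin 2, went from 775 CPM in control vehicle to 479.5 in knockout vehicle and 709 CPM in knockout abemaciclib libraries. PTGER4, a prostaglandin E2 receptor, went from 12.9 to 7.91 and 12.6 CPM, and ZFP36L2, which destabilizes mRNAs, from 179 to 109.7 and 166 CPM. ABCC12 went from 3.83 to 2.13 and 4.30 CPM. Control cells with abemaciclib held 905 CPM of STC2, 15.5 of PTGER4, 255 of ZFP36L2 and 14.4 of ABCC12. SPHK1, sphingosine kinase 1, went the other way, from 3.06 to 5.85 and 3.40 CPM, as did REEP1, from 4.21 to 6.78 and 4.16 CPM. Control cells with abemaciclib held 3.10 CPM of SPHK1, near the control vehicle level, and 3.09 CPM of REEP1.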

How the data were processed

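The table deposited by the authors gives CPM per gene for 16 libraries; STAR 2.7.11, SAMtools 1.22.1, featureCounts of Subread 2.1.1, MultiQC 1.32 and build GRCh38 are named in the submitters' processing notes. For the annotation release, the strand setting and reads that match several genes, the sources used here give nothing. CPM are relative: a change of abundant genes shifts all others. The step between low values gave 9915776 to 11963093 assigned reads per library, but only 70.2 to 71.8% of values came out whole within 0.02 of a read, so no count test was run. Of the 206 genes named by rule, 57 are uncertain for this reason. All 92 ERCC rows were left out, and 51 symbols altered by a spreadsheet were restored from their IDs.

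Log2(CPM + 1) of all 16 libraries was fitted with limma 3.58.1 (R 4.3.3) with 4 group means and a trended prior; tests were two-sided with Benjamini-Hochberg adjustment over 15631 genes. The fit was also run on simulated counts. Those were all whole reads, unlike part of the values used here, so no conclusion is drawn from that run. Named genes are the 15 largest increases and 15 largest decreases of protein-coding genes of at least 5 CPM, up to 3 members per list in its main direction and 1 against it, a fixed set of known genes, the 5 largest interactions each way, 6 genes with opposite steps and the 5 largest CPM gains and losses; MX2, HERC5, USP18, CDT1 and CHAC1 are additions. Some genes named by the rule, and 1 of the lists, are not reported here. The comparison, its 40 gene lists and 6 marker lists were chosen with earlier results of these data known. Alternatives were other pseudocounts, filters, scalings and fits, and leaving out each library.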

Additional observations from a re-analysis of the deposited data

Results flagged for a closer look

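Across 412 group values of the named genes, 26 had a library that stood far from the other 3 of its group; chance alone gives about 1 in 20 groups. In control vehicle replicate 1 these were ABCC11 (51.1 CPM, the others 49.3 to 49.4), AREG (127.4, the others 136.9 to 138.7), PMAIP1 (7.26, the others 6.69 to 6.75), RPS3A (1736, the others 1660 to 1672), TFAP2B (1.21, the others 0.793 to 0.849) and XAF1 (1.815, the others from 1.289). In control vehicle replicate 2 they were CRYAB (0.397 CPM, the others 1.01 to 1.04), KRT7 (37.2, the others 38.3 to 38.5), PFKP (75.1, the others 79.1 to 79.8) and RB1 (37.7, the others 32.3 to 32.9). DUSP1 stood at 22.9 CPM in replicate 3 (the others 20.03 to 20.36), and in replicate 4 FOS stood at 6.599 (the others 8.93 to 9.17) and MRPL54 at 58.4 (the others 54.0 to 54.5).

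Among knockout abemaciclib libraries, replicate 1 stood apart for CPT2 (22.8 CPM, the others 20.2 to 20.6), ENSG00000285920 (3.498, the others 2.88 to 2.95) and TAPBP (147.8, the others 140.6 to 141.6), and replicate 2 for BDH2 (26.1, the others 27.4 to 27.6). Replicate 3 stood apart for ABCC3 (15.4 CPM, the others 18.1 to 18.5), CCNE1 (6.79, the others 4.69 to 4.90), CDK2 (36.8, the others 34.0 to 34.4), FANCI (3.65, the others 5.12 to 5.27), FBL (156.4, the others 164 to 164.5) and RARS1 (159, the others 153 to 153.5). Replicate 4 stood apart for FH (37.3 CPM, the others 33.6 to 34.1), GUSB (70.2, the others 68.8 to 69.0) and MXD4 (134.1, the others 137.7 to 137.9).

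Among the genes whose interaction the report gives, 17 passed the interaction test of limma. On the log2(CPM + 1) scale, the effect of one factor therefore differed with the other. The interaction was below 0 for RRM2 (-1.20), CAMK2B (-1.14), MDGA1 (-1.13), MYBL2 (-1.12), CLSPN (-1.11), CCNE2 (-1.07), MKI67 (-1.001), E2F1 (-0.90), ISG15 (-0.80), IFIT1 (-0.65) and CCND1 (-0.26). It was above 0 for ENSG00000248498 (1.499), ASNS (1.47), ENSG00000284707 (1.46), SLC7A11 (1.44), ENSG00000290398 (1.30) and PHGDH (0.51).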

How the results depend on the processing

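The fit used above gave 4184 higher and 4869 lower genes. Median-of-ratios rescaling gave 4579 and 4551, and quantile normalization 4924 and 4221, so the excess of lower genes depended on the scaling. Over the alternatives with all 16 or the 8 compared libraries and all kinds of genes, counts were 3394 to 4924 and 4022 to 4943. Limited to genes of whole reads, a choice made after seeing the data, they were 1266 and 1427, with 119 higher and 202 lower by at least 2-fold and 127 interactions above and 267 below 0; fewer genes were tested there. Genes higher by at least 2-fold numbered 433 with a pseudocount of 0.1, 108 with 5 and 453 with voom, and those lower by at least 2-fold 303 with a pseudocount of 5. Without the filter 514 interactions were above and 599 below 0, and without a trended prior 514 and 722, against 768 and 995. Leaving out 1 library gave 3871 to 4265 higher, 4607 to 4963 lower, 253 to 270 and 512 to 519 by at least 2-fold, and interactions of 632 to 802 above and 827 to 1106 below 0. The FAH difference ran from -2.20 (voom) to -1.55 (pseudocount 5).

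Quantile normalization reversed MT-RNR2 (-0.061, limma adjusted p = 0.220). The interaction of KRT8 was 0.010 in the fit used above and did not pass there (limma adjusted p = 0.921). Under quantile normalization it was -0.372. The cause of these changes was not tested. MT-ATP6 (0.03), MT-CO3 (0.06) and ZFP36L2 (-0.05) lost their call under quantile normalization. ZFP36L2 also lost it without control vehicle replicate 1 (-0.09) or knockout abemaciclib replicate 4 (-0.09). The CCND1 interaction missed the threshold without a trended prior (limma adjusted p = 0.0524). List medians near 0 changed sign with scaling for cholesterol, fatty acid oxidation and ribosome biogenesis (0.02 under quantile). Among genes of whole reads alone, the medians of luminal (-0.10), estrogen receptor (-0.05), tyrosine (0.08), BCL2 (0.22) and ERK (-0.11) lists changed sign. Leaving out 1 library moved small counts by 1: MHC class I genes lower went from 0 to 1 (control abemaciclib replicate 1, knockout abemaciclib replicate 2), MYC network genes lower from 2 to 1 (control vehicle replicate 2, knockout abemaciclib replicates 3 and 4), ribosomal protein genes higher from 1 to 2 (knockout abemaciclib replicate 2), respiratory chain genes higher from 1 to 2 (control vehicle replicates 1 and 4, knockout abemaciclib replicate 4) and mitosis interactions above 0 from 0 to 1 (control vehicle replicate 3, control abemaciclib replicates 2 and 4). The ERK median was -0.01 without knockout abemaciclib replicate 4. Under quantile normalization, ribosomal protein interactions above 0 went from 48 to 28 and respiratory chain ones from 31 to 13.

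Same-numbered libraries did not deviate together (correlations of -0.03 to 0.08). No strong pairing by number was seen, but a weak one could be hidden by the spread of single libraries. A replicate block gave 4194 higher and 4866 lower genes. Depth limits genes of few reads, since 1 read is about 0.1 CPM, and counting error is not separated from other spread.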

Other observations

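Of 2398 tested long non-coding RNAs, 491 (20.5%) were higher and 509 (21.2%) lower at a limma adjusted p under 0.05. Of 12479 protein-coding genes 28.9% were higher and 33% lower, and the difference between these shares was not tested. The genes named here were chosen after their values were seen. NEAT1, the RNA that builds nuclear paraspeckles, rose from 1105 ± 62.9 to 3444 ± 73.5 CPM (SD, n = 4 each; uncertain), with 3357 CPM under abemaciclib alone and 2214 CPM in the knockout alone. LINC02984 rose from 1.55 to 6.44 CPM and SLC9A3-AS1 from 6.86 to 20.1 CPM. TMPO-AS1 fell from 23.6 to 2.63 CPM, MIR924HG from 10.6 to 0.989 CPM and TYMSOS from 11.1 to 1.215 CPM. Whether the counting used strand is not given in the sources used here, so TYMSOS and its neighbour TYMS, like SLC9A3-AS1, TMPO-AS1 and their partners, cannot be told apart where they overlap.

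Of 413 tested processed pseudogenes, 158 (38.3%) were lower and 23 (5.57%) higher. Such copies share sequence with their parent genes, and how reads matching both were counted is not given in the sources used here.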
